A study of Mus musculus with 4 samples.

Results

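The genes described here encode the enzymes and accessory proteins of hepatic de novo lipogenesis (DNL), measured in liver RNA of aP2-SREBP-1c mice. The 10 genes are Acly, Acss2, Aacs, Acaca, Acacb, Mid1ip1, Thrsp, Fasn, Me1 and Pklr, out of 19938 genes on the arrays that carry a symbol of their own. They were chosen by name, as the probe sets annotated to exactly 1 of these symbols. These symbols had 13 probe sets, and each gene was read from its probe set with the highest mean over the 4 arrays. Liver RNA of 4 male aP2-SREBP-1c mice at 24 weeks of age was hybridized to 1 Mouse Gene 1.0 ST array per mouse, an array with probes along each transcript. All 4 mice are C57Bl6 animals carrying the transgene aP2-HA-hSREBP-1c-NT and were kept on regular laboratory chow. The transgene encodes the transcriptionally active N-terminal part of human SREBP-1c under the adipocyte promoter aP2. As described for the study, the transgene is expressed in adipose tissue and not in liver, and the mice are lipodystrophic. As there is 1 group, levels and their variation among the mice were described, with neither p-values nor fold changes against another phenotype. Nothing in the labels says how the mice were related, and 4 arrays limit the precision.

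In DNL, carbon from glucose or acetate is converted to cytosolic acetyl-CoA, carboxylated to malonyl-CoA and assembled to palmitate, with NADPH as reductant. The liver transcription factors SREBP-1c, which responds to insulin, and ChREBP, which responds to carbohydrate, activate most of these genes. Liver X receptor and thyroid hormone receptor act on several of them as well.

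All 10 genes were above background on all 4 arrays, and 0 of 10 had a range over 1.5-fold, taken from the lowest to the highest mouse. Among all 12264 genes above background, 12.9% had such a range. Without mouse 1, where 12758 genes were above background on the other 3 arrays, 346 (2.71%) had one. The 10 genes stayed at 0, a count that leaving out a mouse cannot raise. In whole liver RNA, fewer cells of a type and less RNA per cell cannot be told apart. Olfactory and vomeronasal receptors, with 1210 probe sets, served as background, and their 95th percentile on each array was 5.33 to 5.52 on the log2 scale. The lowest value of any of the 10 genes lay 2.80 above this limit. The widest range between mice was 1.36-fold, for Aacs, and the narrowest 1.10-fold, for Acss2. The median SD of the 10 genes was 0.094 on the log2 scale, compared with 0.15 over all genes above background. Levels were read from different probe sets and were not ranked between genes.

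A few properties of the arrays bear on these values. Expression values of mouse 1 were compressed. When all genes were divided into 10 classes of mean expression, those of the highest class, which holds 7 of the 10 genes, had a median of -0.23 in mouse 1 against the mean of mice 2 to 4, and 78.1% of them were lowest in mouse 1. In the next class, which holds Aacs, Acacb and Mid1ip1, this median was -0.22. Orders of the mice refer to the deposited values unless stated otherwise, and the orders of the 10 genes after quantile normalization of the 4 arrays are given with the comparison of all 10. All 12 hepatocyte markers were above background, with 0 of them over 1.5-fold between mice. Of 10 measured adipocyte markers, 8 were above background on all arrays, among them Plin1 and Cidec with a range over 1.5-fold. Of the adipokine genes, Adipoq (mean 3.98) and Lep (4.73) were below the limit of every array. Retn was above it on all 4 arrays, at 6.08, 5.74, 5.59 and 5.52 in mice 1 to 4. Of 13 measured markers of pancreatic acinar cells, 11 were above background on all 4 arrays, each with a range over 1.5-fold. Pnliprp1 (6.42, 5.07, 5.23 and 6.60 in mice 1 to 4) and Try4 (6.14, 3.76, 3.87 and 5.24) were above the limit on some arrays only. The summed linear signal of all 13 measured acinar markers was 3852 in mouse 1, 881 in mouse 2, 1083 in mouse 3 and 3210 in mouse 4. The macrophage (10 of 10 above background, 2 over 1.5-fold), cholangiocyte (3 of 5, 0 over) and stellate cell (7 of 7, 3 over) lists were also read.

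Acetyl-CoA for DNL is supplied in the cytosol by different routes. ATP citrate lyase (Acly), which cleaves citrate exported from mitochondria, had log2 values of 11.23, 11.04, 11.17 and 11.25 in mice 1 to 4. Its mean was 11.17 ± 0.095 (SD, n = 4 mice), with 11.01 to 11.34 as the 95% confidence interval from limma. Mouse 2 was the lowest, and the other mice lay close together. Acetyl-CoA synthetase 2 (Acss2), which activates acetate, was measured at 10.04, 9.93, 9.99 and 10.06. With 10.004 ± 0.060 (SD, n = 4; 95% confidence interval 9.85 to 10.16), it varied least of the 10 genes in the deposited values, where 5.99% of all genes above background had a smaller SD. After quantile normalization its SD was 0.13, and Mid1ip1, Thrsp, Me1 and Pklr varied less. Acetoacetyl-CoA synthetase (Aacs), which returns ketone bodies to lipid synthesis in the cytosol, was measured at 8.92, 8.70, 8.94 and 9.14. Its level of 8.93 ± 0.18 (SD, n = 4; 95% confidence interval 8.74 to 9.11) varied most of the 10 genes in the deposited values, where 62.6% of all genes had a smaller SD. After quantile normalization the SD was 0.193 for Aacs and 0.195 for Acaca. A second probe set of Acaca, not used for its level, had an SD of 0.25 in the deposited values. In these values, mouse 2 was again the lowest and mouse 4 the highest for both Acss2 and Aacs. The log2 difference between Acss2 and Aacs, which both activate a short acid with coenzyme A, varied 1.24-fold between mice, since mice 2 and 4 deviated further in Aacs.

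The committed step is catalyzed by the acetyl-CoA carboxylases. Acetyl-CoA carboxylase 1 (Acaca), which makes the malonyl-CoA used for chain synthesis in the cytosol, was measured at 10.33, 10.11, 10.21 and 10.46 in mice 1 to 4 (10.28 ± 0.15, SD, n = 4; 95% confidence interval 10.10 to 10.45). Acetyl-CoA carboxylase 2 (Acacb), which sits at the mitochondrial outer membrane and whose malonyl-CoA restrains carnitine palmitoyltransferase 1, was measured at 8.73, 8.58, 8.59 and 8.80 (8.67 ± 0.11, SD, n = 4; 95% confidence interval 8.51 to 8.84). Both carboxylases had the order 2, 3, 1, 4 from the lowest to the highest mouse in the deposited values, but 2, 3, 4, 1 (Acaca) and 3, 2, 4, 1 (Acacb) after quantile normalization. With the Acaca probe set used, the log2 difference between the carboxylases varied 1.09-fold between mice in the deposited values. This was less than the 1.28-fold of Acaca and the 1.17-fold of Acacb alone. The second probe set of Acaca had the order 2, 1, 3, 4 and a 1.49-fold range. Its difference from Acacb was not computed, so the narrow range applies to the probe set used only.

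Mid1ip1 and Thrsp encode the paralogs MIG12 and Spot 14. MIG12 promotes polymerization and activity of the carboxylases, and Spot 14 forms heterodimers with it and is induced by thyroid hormone and carbohydrate. Mid1ip1 was measured at 8.32, 8.49, 8.54 and 8.56 in mice 1 to 4 (8.48 ± 0.11, SD, n = 4; 95% confidence interval 8.31 to 8.64), with mouse 1 below the others. Thrsp was measured at 12.08, 12.26, 12.28 and 12.16 (12.19 ± 0.091, SD, n = 4; 95% confidence interval 12.03 to 12.36), with mouse 1 the lowest and mouse 3 the highest. Neither paralog followed the order of the carboxylases. After quantile normalization the range between mice was 1.05-fold for Mid1ip1 and 1.03-fold for Thrsp, and mouse 1 was the highest for Thrsp.

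Fatty acid synthase (Fasn), the multifunctional enzyme that assembles palmitate from malonyl-CoA and NADPH, was measured at 11.78, 11.72, 11.75 and 11.89 in mice 1 to 4. Its level was 11.78 ± 0.072 (SD, n = 4; 95% confidence interval 11.63 to 11.94), a 1.12-fold range. Mouse 4 was the highest, while mice 1 to 3 lay close together. In the deposited values, the order of the mice for Fasn was that of Acly, Acss2, Acaca and Acacb. After quantile normalization it was 3, 2, 4, 1, as for Acss2 and Acacb, whereas Acly and Acaca had 2, 3, 4, 1. The log2 difference between Fasn and Acly varied 1.10-fold between mice. That between Fasn and the Acaca probe set used varied 1.14-fold.

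Malic enzyme 1 (Me1), which provides cytosolic NADPH by turning malate into pyruvate, was measured at 12.43, 12.60, 12.61 and 12.63 (12.57 ± 0.093, SD, n = 4; 95% confidence interval 12.40 to 12.73). Mouse 1 was low, and the other 3 mice lay within a narrow band. Liver pyruvate kinase (Pklr), which forms the pyruvate that enters mitochondria and is a classical ChREBP target, was measured at 11.79, 11.96, 11.97 and 11.84 (11.89 ± 0.091, SD, n = 4; 95% confidence interval 11.73 to 12.05). Pklr shared its order of mice with Thrsp in the deposited values, namely 1, 4, 2, 3 from the lowest to the highest. After quantile normalization the order was 4, 3, 2, 1 for Pklr and 4, 2, 3, 1 for Thrsp, with mouse 1 the highest for both.

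**Figure D1:**
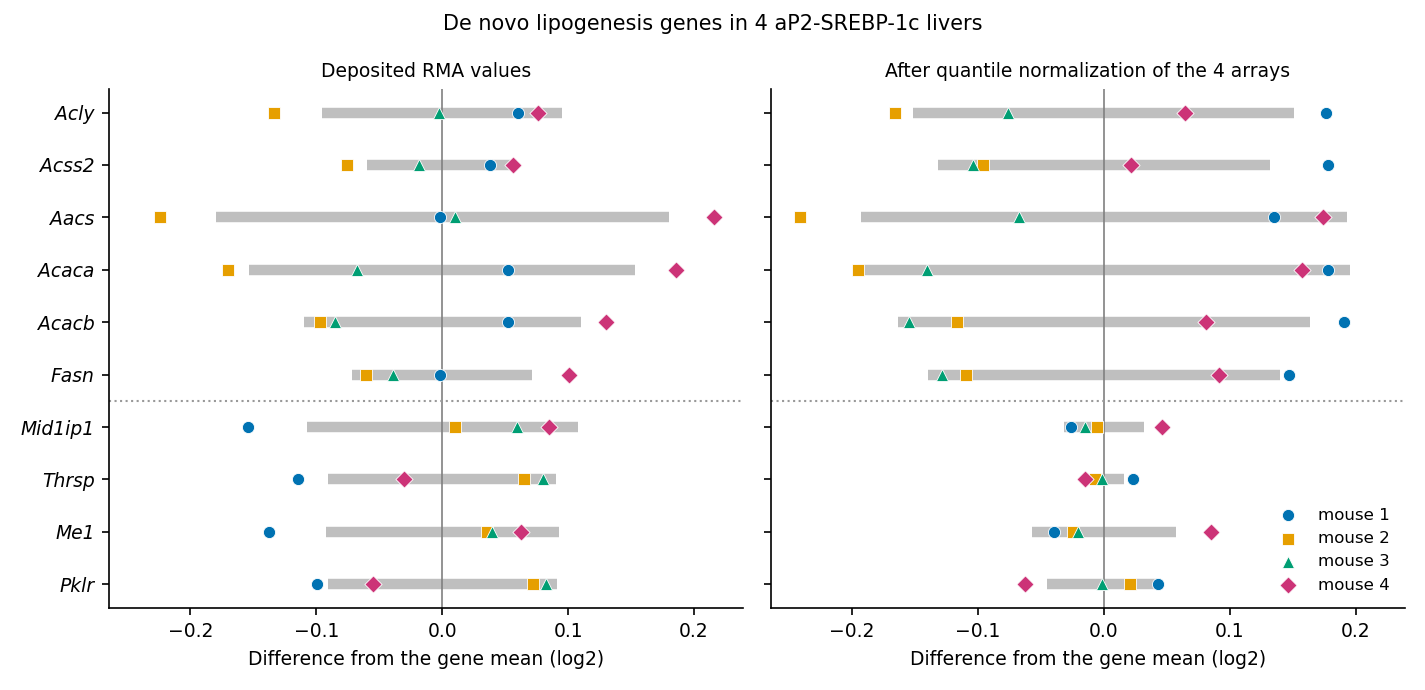
Difference of each mouse from the mean of the gene on the log2 scale, for the deposited values (left) and after quantile normalization of the 4 arrays (right). Symbols stand for mice and grey bars for ± SD (n = 4). Above the dotted line, mouse 2 is lowest and mouse 4 highest in the deposited values; below it, mouse 1 is lowest, and the SD of these 4 genes falls to at most 0.057 on the right.

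Thus the 10 genes fell into 2 groups by their order of mice, a division made after the values had been seen. Acly, Acss2, Aacs, Acaca, Acacb and Fasn were lowest in mouse 2 and highest in mouse 4 (6 of 10 genes), as were 8.09% of all genes above background. Of these 6 genes, all but Aacs had the full order 2, 3, 1, 4 (5 of 10 genes), which 4.17% of all genes had. Mid1ip1, Thrsp, Me1 and Pklr were lowest in mouse 1, as were 46.1% of all genes above background. Without regard to mouse 1, all of the 10 genes but Thrsp and Pklr were lowest in mouse 2 and highest in mouse 4 among mice 2 to 4 (8 of 10 genes, 20.1% of all genes). Mid1ip1 and Me1 met this with the probe sets used but not with their second probe sets. Only Acly, Acss2, Acaca and Acacb were above the mean of the gene in mice 1 and 4 and below it in mice 2 and 3 (4 of 10 genes, 10.4% of all genes).

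These orders depended on the scaling of the arrays. After quantile normalization only Aacs was still lowest in mouse 2 and highest in mouse 4 (1 of 10 genes, 7.79% of all genes). Mouse 1 was then the highest for Acly, Acss2, Acaca, Acacb and Fasn, and mouse 3 in place of mouse 2 the lowest for Acss2, Acacb and Fasn. Mid1ip1 and Me1 stayed lowest in mouse 1 (2 of 10 genes, 36.1% of all genes). All 6 genes of the first group were now above the mean of the gene in mice 1 and 4 and below it in mice 2 and 3 (15.0% of all genes), and 4 of 10 genes were lowest in mouse 2 and highest in mouse 4 among mice 2 to 4 (19.8%). With median-centred arrays, the 6 genes lowest in mouse 2 and highest in mouse 4 remained (7.98% of all genes), as did the 4 genes lowest in mouse 1 (55.8%) and the 8 genes ordered among mice 2 to 4 (22.6%), but 0 of 10 genes were above their mean in mice 1 and 4 and below it in mice 2 and 3 (8.15%). When the median of the expression class was subtracted from each difference, all of the 10 genes but Thrsp and Pklr (8 of 10 genes) were above 0 in mice 1 and 4 and below 0 in mice 2 and 3 (16.7% of all genes). Under the deposited values, quantile normalization and median-centred arrays alike, the same 6 genes had their highest value in mouse 1 or 4 and their lowest in mouse 2 or 3. For the deposited values this follows from how the group was formed, and for median-centred arrays from the order kept there. Quantile normalization could have changed it, but it rescaled the same values from which the group was formed, so it was no independent check. The shares of all genes that follow are over genes not chosen by their order. This broader criterion, set after the values had been seen, was met by 27.8% of all genes with the deposited values. It was met by 34.8% after quantile normalization and 22.8% with median-centred arrays.

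Quantile normalization also widened the range between mice in the first group, except for Aacs, and narrowed it in the second. In the first group the range between mice went from 1.16-fold to 1.27-fold for Acly, from 1.10-fold to 1.22-fold for Acss2, from 1.17-fold to 1.27-fold for Acacb and from 1.12-fold to 1.21-fold for Fasn. Acaca (1.28-fold and 1.30-fold) and Aacs (1.36-fold and 1.33-fold) had similar ranges before and after. In the second group it went from 1.18-fold to 1.05-fold for Mid1ip1, from 1.14-fold to 1.03-fold for Thrsp, from 1.15-fold to 1.09-fold for Me1 and from 1.13-fold to 1.08-fold for Pklr. None of the 10 genes exceeded 1.5-fold in either version. The pancreatic acinar transcripts were likewise higher in mice 1 and 4 than in mice 2 and 3, where the median of the list against the mean of the remaining mice was 1.30, -1.46, -1.07 and 1.16 in mice 1 to 4. In contrast, this median was -0.34, 0.38, 0.14 and -0.14 for the 7 stellate cell markers and -0.088, 0.16, 0.16 and -0.11 for the 3 cholangiocyte markers above background. The part of these cells in the values of the 6 genes was not tested. The 12 hepatocyte markers differed by medians of -0.058, 0.026, 0.052 and 0.00015.

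**Figure D2:**
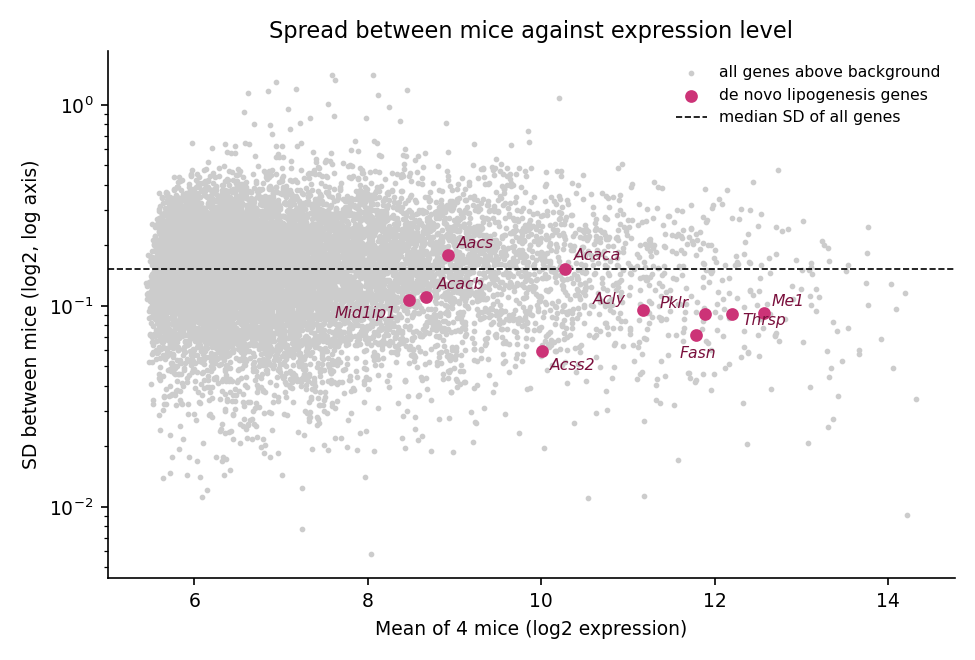
SD between the 4 mice (log2, log axis) against the mean log2 expression for 12264 genes above background (grey) and the 10 DNL genes (red). The dashed line marks the median SD of all genes (0.15); of the 10 genes, Acaca lies close to it, Aacs above it and the others below.

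Acaca, Me1 and Mid1ip1 each have a second probe set on the array, which allowed a check within the gene. For Acaca, the second probe set gave 9.59, 9.17, 9.63 and 9.74 in mice 1 to 4, with mouse 2 lowest and mouse 4 highest as for the first. Its range was 1.49-fold, just inside the limit of 1.5-fold. The second probe set of Me1 gave 12.44, 12.51, 12.56 and 12.47, with mouse 1 lowest as for the first, but with mouse 3 rather than mouse 4 highest. The second probe set of Mid1ip1 gave 6.39, 6.54, 6.24 and 6.42, at most 1.23-fold apart and with mouse 3 lowest. The order of mice of Mid1ip1 was thus not shared by its probe sets, and that of Acaca was shared at its ends only.

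**Figure D3:**
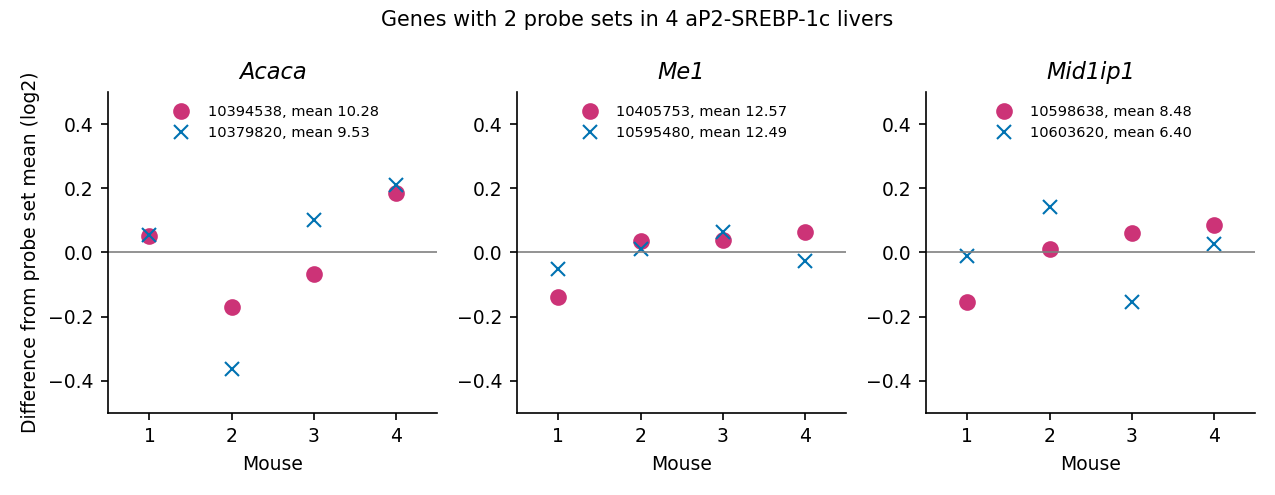
Difference of each mouse from the mean of the probe set on the log2 scale for the 3 genes with 2 probe sets. Circles stand for the probe set used and crosses for the other; for Acaca both are lowest in mouse 2 and highest in mouse 4, and for Mid1ip1 their lowest mice differ.

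The promoter sequences show which letters the 2 groups share at their start sites. They were taken from RefSeq windows of build GRCm38.p6, 250 bases before to 50 after each annotated start, of which 12 matched the 10 genes (Me1 and Pklr have 2 starts). The only windows of Acaca, Acacb and Fasn lie inside the annotated gene, as do the second windows of Me1 and Pklr. For Acaca, Acacb and Fasn, the outermost start was thus not searched, and the counts below do not cover it. Both strands were searched. The letters CCAAT of the NF-Y box, a factor that acts with SREBP at many lipogenic promoters, occurred in 7 of 12 windows, compared with 37.4% of 32851 windows of all genes. These 7 windows belong to Acly, Acss2, Acacb and Fasn of the first group and to Thrsp, Me1 and Pklr of the second. The letters GGGCGG of the GC box occurred in 4 of 12 windows (35.7% of all) and TATAAA of the TATA box in 2 of 12, for Acacb and Pklr (13.6% of all). The SREBP element TCACNCCAC and the E-box CACGTG were in 0 of 12 windows (1.24% and 7.15% of all). The carbohydrate response element of ChREBP, searched as CACGNG and CNCGTG with 5 bases between them and added after the first search, was in the second window of Pklr and in 0.0457% of all windows. Only in Fasn did 2 CCAAT matches overlap, 1 on each strand. A match is a description of the letters and not evidence of binding. Fasn (minus strand, chr11:120824498-120824797), Thrsp (minus strand, chr7:97417501-97417800) and the second start of Pklr (plus strand, chr3:89136373-89136672) are shown, 1 of the first group and 2 that share their order of mice in the deposited values in the second. Capitals mark the NF-Y boxes on either strand and, in Pklr, the carbohydrate response element.
Fasn: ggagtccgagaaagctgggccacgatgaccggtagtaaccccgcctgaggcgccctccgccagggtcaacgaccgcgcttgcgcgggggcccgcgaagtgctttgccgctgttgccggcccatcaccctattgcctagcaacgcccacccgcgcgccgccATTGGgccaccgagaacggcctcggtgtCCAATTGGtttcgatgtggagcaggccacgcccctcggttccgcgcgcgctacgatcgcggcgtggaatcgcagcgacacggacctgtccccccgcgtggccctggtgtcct
Thrsp: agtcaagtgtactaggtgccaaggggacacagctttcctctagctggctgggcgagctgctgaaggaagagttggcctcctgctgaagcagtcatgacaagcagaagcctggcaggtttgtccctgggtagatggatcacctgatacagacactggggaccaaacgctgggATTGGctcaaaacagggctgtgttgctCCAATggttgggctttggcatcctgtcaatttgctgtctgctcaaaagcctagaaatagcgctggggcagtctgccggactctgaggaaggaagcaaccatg
Pklr: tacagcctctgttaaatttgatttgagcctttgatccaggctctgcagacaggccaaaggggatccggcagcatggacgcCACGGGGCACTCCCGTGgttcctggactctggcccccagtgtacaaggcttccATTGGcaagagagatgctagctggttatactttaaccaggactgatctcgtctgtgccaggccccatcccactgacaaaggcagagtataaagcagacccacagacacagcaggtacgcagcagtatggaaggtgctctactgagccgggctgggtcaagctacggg
Counted from the annotated start of the window shown, the NF-Y boxes begin at -90, -62 and -59 in Fasn and at -79 and -52 in Thrsp. In Pklr, the carbohydrate response element begins at -170, the NF-Y box at -117 and the TATA box at -31.

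**Figure D4:**
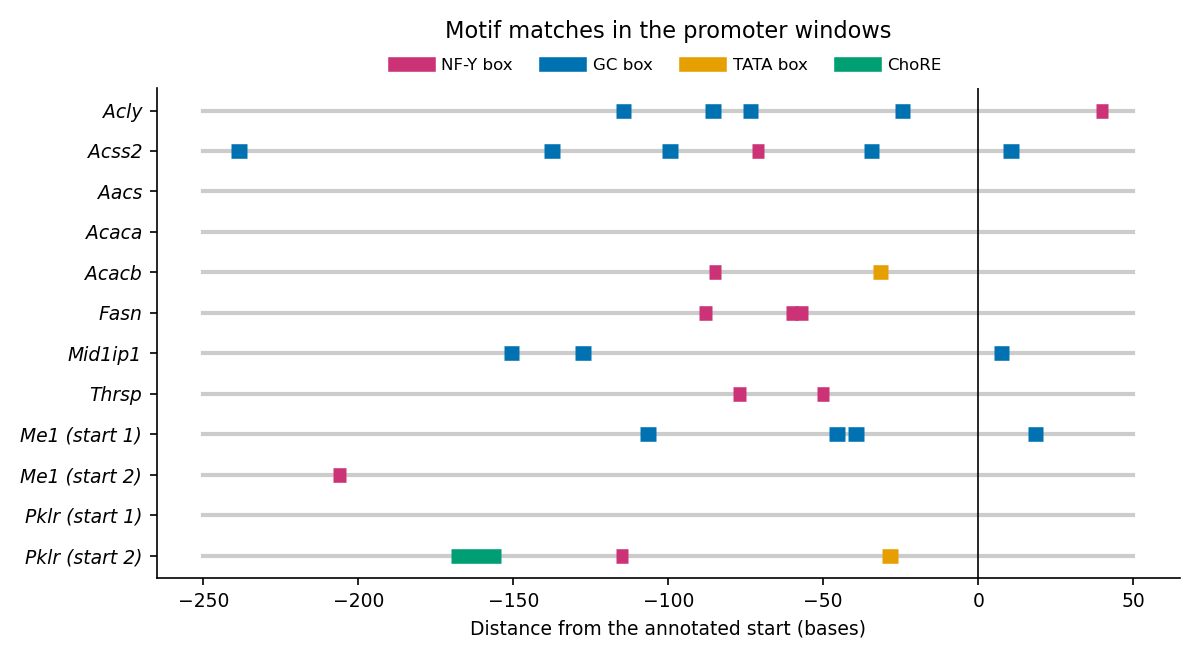
Motif matches on either strand in the 12 promoter windows, by distance from the annotated start in bases. Coloured blocks stand for matches of the NF-Y box, GC box, TATA box and carbohydrate response element (ChoRE); Fasn holds 3 NF-Y boxes and Thrsp 2, and the windows of Aacs and Acaca and the first window of Pklr hold no match.

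The other genes of the pathway were described from lists compiled from general knowledge. Precursor supply, from mitochondrial pyruvate uptake to citrate export, had the largest median SD of these lists (0.24). All 13 measured genes were above background, and 5 of 13 had a range over 1.5-fold (12.9% of all genes), namely Cs, Pdhb, Mpc1, Acss1 and Acss3. The mitochondrial pyruvate carrier subunit Mpc1 was measured at 9.87, 10.79, 10.85 and 10.42 in mice 1 to 4. Citrate synthase (Cs), which forms the citrate for export, had values of 9.03, 9.73, 9.82 and 9.53. The median difference of the list in mouse 1 was -0.43, and 11 of 13 genes were lowest there, including Mpc1 and Cs, compared with 46.1% of all genes and 78.1% of those in the highest expression class. In contrast, the citrate carrier Slc25a1, which exports the substrate of ATP citrate lyase, varied least of the list (10.21, 10.28, 10.27 and 10.34). Acss1, the mitochondrial counterpart of Acss2, was measured at 6.18, 5.93, 5.99 and 6.54 and thus had the order of the mice of Acss2. After quantile normalization 2 of 13 genes exceeded 1.5-fold, and without mouse 1 only 1.

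NADPH supply outside Me1 had 10 of 11 measured genes above background and 0 over 1.5-fold, with a median SD of 0.13. Mitochondrial isocitrate dehydrogenase (Idh2) varied most (8.68, 9.08, 9.15 and 8.99 in mice 1 to 4) and hexose-6-phosphate dehydrogenase (H6pd) least (9.57, 9.63, 9.55 and 9.51). Of 7 measured genes of glycolysis and sugar uptake, all were above background and 1 differed by more than 1.5-fold by a small margin, the glucose transporter Slc2a2 (10.68, 11.27, 11.23 and 11.02). Ketohexokinase (Khk), which commits fructose to metabolism, varied least (11.74, 11.74, 11.80 and 11.83). These lists were mostly lowest in mouse 1, in 6 of 10 and 5 of 7 genes, compared with 46.1% of all genes.

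Downstream of Fasn, 13 of 14 measured elongases, desaturases and their partner enzymes were above background. Only Hacd3, a dehydratase of chain elongation, differed by more than 1.5-fold (8.38, 8.98, 9.08 and 8.85 in mice 1 to 4). Stearoyl-CoA desaturase 1 (Scd1) varied least (13.83, 13.96, 13.98 and 13.89). The list was lowest in mouse 1 in 11 of 13 genes, compared with 46.1% of all genes and 78.1% of the highest expression class. Its median difference in mouse 1 was -0.23, the same as that of the highest class. The median difference of the 10 DNL genes in mouse 1 was -0.0021, with single genes from -0.21 (Mid1ip1) to 0.080 (Acly). After quantile normalization the medians were -0.15 for the list and 0.19 for the DNL genes. The elongase Elovl6, which extends palmitate and was picked out after its values were seen, was an exception with 12.13, 11.90, 11.98 and 12.08, lowest in mouse 2 and highest in mouse 1.

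All 14 measured genes of transcriptional control were above background, and 0 differed by more than 1.5-fold. Insig2, which retains SREBP in the endoplasmic reticulum, varied most (11.16, 11.72, 11.72 and 11.53) and Srebf2, which encodes the SREBP of sterol synthesis, least (7.38, 7.42, 7.45 and 7.43). Srebf1, which encodes SREBP-1, was measured at 8.84, 8.71, 8.69 and 9.06 while Mlxipl, which encodes ChREBP, had values of 8.83, 8.94, 9.05 and 9.03, both picked out after their values were seen. Srebf1 was highest in mouse 4 and low in mice 2 and 3. Mlxipl was lowest in mouse 1, like 11 of the 14 genes of this list and 46.1% of all genes.

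Of the AMPK genes, whose kinase inhibits both carboxylases by phosphorylation, 8 of 9 were above background. The catalytic subunit Prkaa1 was the only one over 1.5-fold (6.93, 7.52, 7.56 and 7.42 in mice 1 to 4), and the other catalytic subunit Prkaa2 varied least (8.93, 9.10, 9.14 and 9.17). Of 8 measured partners of the DNL enzymes, 6 were above background and 0 differed by more than 1.5-fold. Biotinidase (Btd), which recycles biotin, varied most (7.31, 7.72, 7.84 and 7.81) and Mid1, the namesake partner of Mid1ip1, least (6.69, 6.47, 6.57 and 6.63). Holocarboxylase synthetase (Hlcs), which attaches biotin to the carboxylases and was picked out after its values were seen, was measured at 6.62, 6.27, 6.43 and 6.72, the order of mice of Acaca and Acacb.

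Of the ketone and sterol list, 4 genes had a probe set of their own, of which 3 were above background and 0 over 1.5-fold. Acat1, the mitochondrial acetoacetyl-CoA thiolase, varied most (11.56, 12.09, 12.12 and 11.84) and Hmgcs1, the cytosolic synthase of the sterol pathway, least (11.13, 11.37, 11.55 and 11.14). Mitochondrial fatty acid synthesis, a separate pathway that provides lipoic acid, had all 6 genes above background. Its ketoacyl synthase Oxsm differed by 1.51-fold (7.84, 8.27, 8.44 and 8.36), and its malonyl transferase Mcat varied least (6.88, 6.98, 6.91 and 7.01). Of these lists, 3 of 3 and 5 of 6 genes were lowest in mouse 1, compared with 46.1% of all genes.

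**Figure D5:**
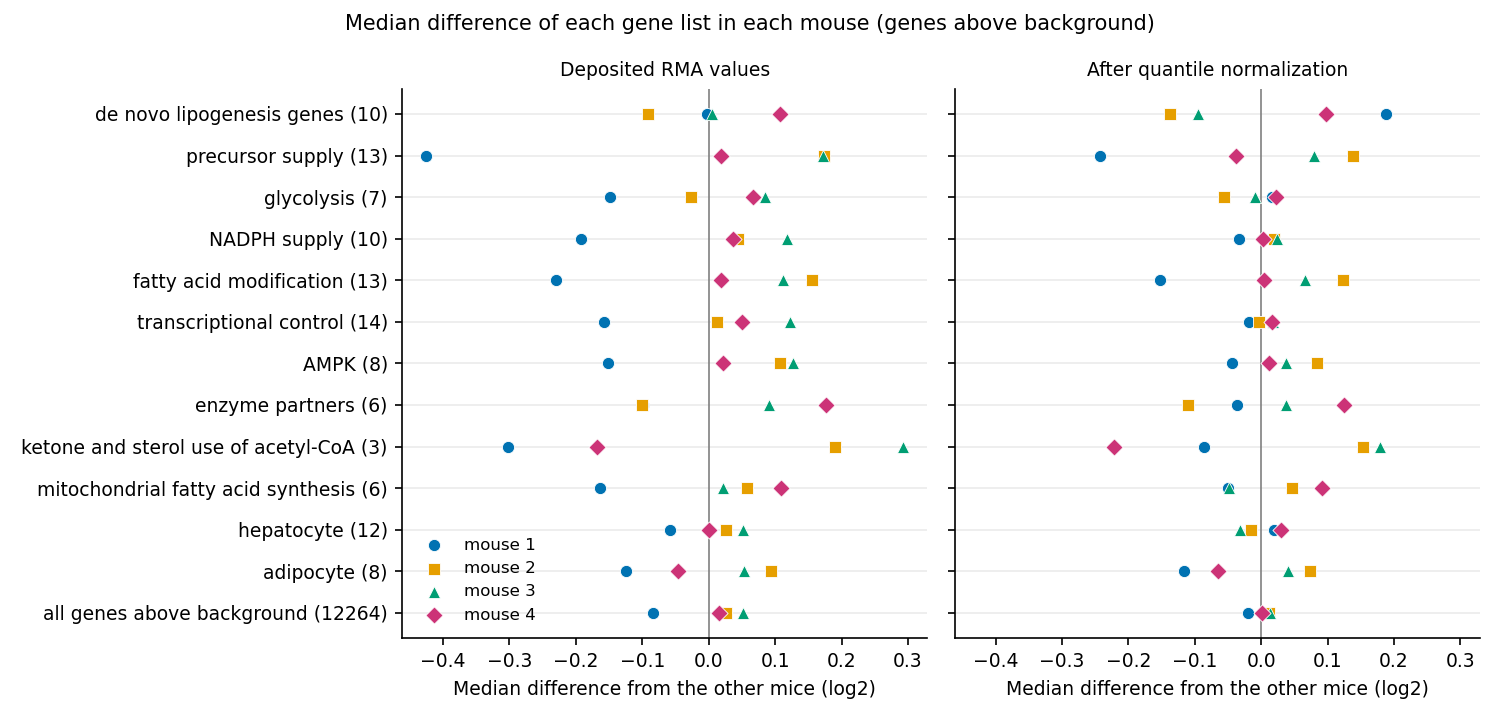
Median log2 difference of each gene list in 1 mouse from the mean of the remaining 3, with the deposited values (left) and after quantile normalization (right). Symbols stand for mice, and the number of genes above background is given in parentheses. The DNL genes are near 0 in mouse 1 on the left and at 0.19 on the right, whereas precursor supply is at -0.43 and -0.24.

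Aacs had the largest SD of the DNL genes in the deposited values with the probe sets used. In these values it was compared with all other genes above background. The measure was the root mean square difference of their values in the 4 mice, after the mean of each gene was subtracted. The nearest genes outside the pathway were Lpp, Wnt9a, Arhgap42, Tnfrsf11b and Ube2a, at differences of 0.0061 to 0.018. Acaca was the nearest DNL gene, at 0.057, and 1.30% of 12263 genes were nearer. Acly (0.089), Acacb (0.094), Fasn (0.10) and Acss2 (0.11) followed, whereas Thrsp (0.20) and Pklr (0.21) were the farthest of the 10 genes. With 4 mice, many genes resemble any pattern, and the measure is a description only.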

How the data were processed

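Arrays of liver RNA from 4 mice were analysed. The authors deposited log2 expression values per probe set, computed by RMA in Affymetrix Expression Console per the labels. RMA comprises background correction, quantile normalization and a median polish of the probes. The set of arrays normalized jointly and the genome build are not given in the sources used here. All value columns matched a mouse by label (0 without a sample). Of 35556 probe sets, 21789 had 1 symbol in the platform annotation, 1621 had several and 12146 were unnamed here. Genes without a probe set of their own symbol were not analysed here.

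Means, SDs and differences between mice were computed on the log2 scale, and 95% confidence intervals by limma 3.58.1 (lmFit, eBayes) under R 4.3.3, whose moderation of the variance widens intervals of genes with a small SD. Python 3.11.15 was used otherwise. The confidence intervals and the difference of 1 mouse from the others were tested on simulated data with independent normal noise. The other steps were not tested in this way, and the simulation did not include the compression of mouse 1. Replicate arrays correlated at 0.974 to 0.993 across genes above background, which are not independent replicates, and no pair of arrays shared more than 25 identical values. The 10 genes and all lists were chosen with earlier results of these data known. Of each other pathway list, genes over 1.5-fold between mice and those with the largest and smallest SD are named. Alternatives comprised median-centred arrays, quantile normalization, averaged probe sets, background limits at other percentiles, a 2-fold range, no filter, subtraction of the median of the same expression class, and leaving out each mouse. Arrays of other phenotypes were not analysed here.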

Additional observations from a re-analysis of the deposited data

Results flagged for a closer look

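In Me1, mouse 1 stood apart from the other 3 mice, with a difference from their mean of -0.18 on the log2 scale. It was the only one of 62 named genes with such a gap, while 5.75% of all 12264 genes above background had one. Chance alone flags about 1 in 20 groups. The expression class of Me1 had a median of -0.23 in mouse 1, which is further from 0 than the difference of Me1. The second probe set of Me1 (12.44, 12.51, 12.56 and 12.47 in mice 1 to 4) was not flagged. After quantile normalization mouse 1 was at 12.52 for Me1 and the other mice at 12.54, 12.54 and 12.65.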

How the results depend on the processing

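All 10 genes stayed above background and 0 exceeded 1.5-fold under every alternative run for these counts, including each mouse left out. Part of this was fixed in advance. Leaving out a mouse or setting a 2-fold range cannot raise a count of 0. Leaving out a mouse or lowering the background limit cannot remove a gene. The number of all genes over 1.5-fold was 138 with a 2-fold range, 3749 without a filter and 346 to 1295 with 1 mouse left out, the lowest without mouse 1. The median SD of the 10 genes was 0.12 with median-centred arrays, 0.14 with quantile normalization and 0.082 to 0.11 with 1 mouse left out. The median SD of all genes was not computed under these alternatives, so the comparison with it was made for the deposited values only. The median difference of the 10 genes after quantile normalization was 0.19 in mouse 1 and -0.096 in mouse 3, and 0.22 and -0.12 less the median of the same expression class. The 6 genes lowest in mouse 2 and highest in mouse 4 became 1 with quantile normalization and 1 less the median of the same expression class, alternatives chosen after seeing the data, and 6 to 8 with mouse 3 or mouse 1 left out. Of the other pathway lists, 9 genes exceeded 1.5-fold, 15 with median-centred arrays, 2 with quantile normalization, 0 at 2-fold and 1 to 7 with 1 mouse left out, the lowest without mouse 1. Alternatives shifted 68 of 70 levels within the SD of the gene, and the others were Acaca (9.90) and Mid1ip1 (7.44) with the mean of their probe sets. Most of these comparisons could not have moved. Median centring leaves the mean of a gene unchanged, and leaving out a mouse cannot shift it by a full SD. Averaging changes only genes with more than 1 probe set. Of 70 SDs, 57 moved by less than their jackknife error. That error was computed from the SDs with 1 mouse left out, so those comparisons were not independent of it. Averaging again could change only genes with more than 1 probe set. With quantile normalization, the SDs of Acly, Acss2, Acacb, Mid1ip1, Thrsp, Fasn and Pklr moved by more than this error. Those of Aacs, Acaca and Me1 did not. For results that moved, the cause was not tested. No paired analysis was possible because there is only 1 group.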
